A study of Mus musculus with 140 samples.

Results

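The genes described here encode the nuclear subunits of the oxidative phosphorylation system in gastrocnemius, a fast limb muscle of the calf. They were chosen by symbol, as the protein-coding genes named for subunits of respiratory complexes I to IV and of ATP synthase (complex V), with the Ndufaf assembly factors left out. Of 11461 genes in the table, 82 met the rule: 37 in complex I, 4 in complex II, 9 in complex III, 15 in complex IV and 17 in complex V. Ndufb1-ps matched by symbol but is annotated as non-coding and was left out. The rule also took in Atp5s, a factor associated with ATP synthase, and Cox7a2l, which joins respiratory complexes into supercomplexes.

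The RNA came from male C57B6/J mice aged 10 to 11 weeks, kept on 12 h of light and 12 h of dark. Exercised mice ran on a treadmill for 1 h, starting at zeitgeber time (ZT, hours after lights on) 3 in the early rest phase or at ZT 15 in the early active phase. Sham mice spent that hour on a treadmill that did not move. Muscle was collected at 6 times, from directly after the treadmill hour to 20 h later in steps of 4 h, which gave 24 groups. Files of all but 3 of the 140 labelled samples were analysed, with 6 libraries in 18 groups, 5 in 5 groups and 4 in 1 group, that of exercise at 0 h of the rest phase. The other 3 samples were not analysed here. All mice were males of 1 strain, and the tissue was whole muscle, so fewer cells of a type and less RNA per cell cannot be told apart.

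Oxidative phosphorylation passes electrons from NADH through complex I, or from succinate through complex II, to ubiquinone, then through complex III and cytochrome c to complex IV, where oxygen is reduced. The proton gradient built on the way drives ATP synthase. Most subunits are encoded in the nucleus and imported into mitochondria, where they assemble with the few core subunits that mitochondrial DNA encodes. Several subunits of complex IV exist as a heart and muscle isoform and a more widely expressed one. In skeletal muscle these genes are best known as targets of the coactivator PGC-1α together with the factors NRF1, GABP (an ETS factor) and the estrogen-related receptors.

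Upstream sequences of 3 members are printed here because the results return to them. Sdha had the smallest p-values directly after exercise in both phases, Atp5g3 had the smallest at 4 h of the rest phase, and Cox8b had the most negative coefficient on transcript length bias. Each shows 210 bases, from 250 to 41 bases before the RefSeq start, in the direction of transcription on GRCm38.p6. All 3 genes lie on the minus strand, with the windows at chr13:74350281-74350490 for Sdha, chr2:73911367-73911576 for Atp5g3 and chr7:140900487-140900696 for Cox8b. Capitals mark matches, on either strand, to the NRF1 motif (GCGCA, any base, GCGC) in Sdha or to the estrogen-related receptor motif TCAAGGTCA in Atp5g3.
Sdha: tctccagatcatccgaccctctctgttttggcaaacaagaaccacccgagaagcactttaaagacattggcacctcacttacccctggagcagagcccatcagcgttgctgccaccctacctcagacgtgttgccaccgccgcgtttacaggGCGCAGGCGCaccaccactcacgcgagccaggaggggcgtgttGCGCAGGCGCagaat
Atp5g3: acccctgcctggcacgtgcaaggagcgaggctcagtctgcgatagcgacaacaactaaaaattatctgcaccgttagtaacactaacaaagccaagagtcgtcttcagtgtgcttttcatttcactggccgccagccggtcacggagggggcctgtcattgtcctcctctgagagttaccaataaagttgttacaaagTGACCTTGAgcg
Cox8b: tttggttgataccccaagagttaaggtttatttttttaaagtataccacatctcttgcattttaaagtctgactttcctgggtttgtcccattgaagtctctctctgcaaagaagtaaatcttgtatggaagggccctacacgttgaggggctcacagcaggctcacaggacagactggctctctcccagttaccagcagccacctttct
RefSeq promoters were matched for 64 of the 82 members. In the 250 bases before the start, on both strands, the NRF1 motif was found in 13 of the 64 members (20.3%), against 4.23% of all 27025 genes with a promoter. The ETS motif CCGGAAG was found in 12 members (18.8%), against 7.83% of all genes. The estrogen-related receptor motif was found in 1 member, Atp5g3 (1.56%), against 0.422% of all genes. A motif of the factor YY1 (AAGATGGC) was found in 1 member (1.56%), against 1.83% of all genes. The TATA box motif TATAAA was found in 5 members (7.81%), against 14.3% of all genes. The window of Sdha held the NRF1 motif 3 times, 2 of them in the printed stretch, and none of the 5 motifs was found in that of Cox8b. The matches shown did not overlap one another. They describe letters, and binding was not measured.

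The libraries held 2.19 to 27.6 M reads with a median of 11 M (M, 1e6 reads). The 82 members took 2.05% to 6.67% of the reads of a library, with a median of 4.98%. All 8 listed muscle genes were measured, with mean values of 17436 for Acta1, 16260 for Myh4 and 11169 for Ckm. Values are the deposited ones, reads per 1e6 reads of a library size that the authors scaled. In 6 libraries the median correlation with the other libraries of the group was under 0.9. The subunit mRNAs were short: the main transcript had a median of 751.5 bp over the members and 2940 bp over other coding genes, and 81 of 82 members lay below the median of the other genes.

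Per kb of main transcript, complex IV had the highest median level in the 69 sham libraries (1134), followed by complexes III (973.3), V (784.4), I (371.7) and II (231.6). Atp5e (chr2:174461072-174464105), the small epsilon subunit of ATP synthase, was highest of the 82 at 7141 ± 3760 per kb (SD, n = 69 libraries). Cox8b (chr7:140898945-140900446) and Cox7a1 (chr7:30184144-30186078), heart and muscle isoforms in complex IV, followed at 3971 ± 1832 and 3927 ± 1978 per kb, well within their spread of each other. Ndufa4, first described in complex I and now placed in complex IV, had 3365 ± 1512 per kb, and Uqcrh, the hinge protein of complex III, had 2757 ± 1303 per kb. Ndufa4 and Ndufa4l2 are counted in complex I here, in its medians too. At the other end stood Cox4i2, the hypoxia-linked isoform of subunit 4, at 2.27 ± 1.15 per kb, Ndufa4l2, a hypoxia-linked relative of Ndufa4, at 3.92 ± 1.61 per kb, and Atp5s at 10.40 ± 2.72 per kb. Cox6a1 with 31.67 ± 8.83 per kb and Ndufs1 with 64.53 ± 19.14 per kb came next. Levels per kb rest on 1 transcript a gene. For Atp5g1, Atp5g2, Ndufb2 and Uqcrq an equally ranked transcript was over 1.5 times longer, so their level per kb is uncertain. Coordinates are those of GRCm38.

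**Figure D1:**
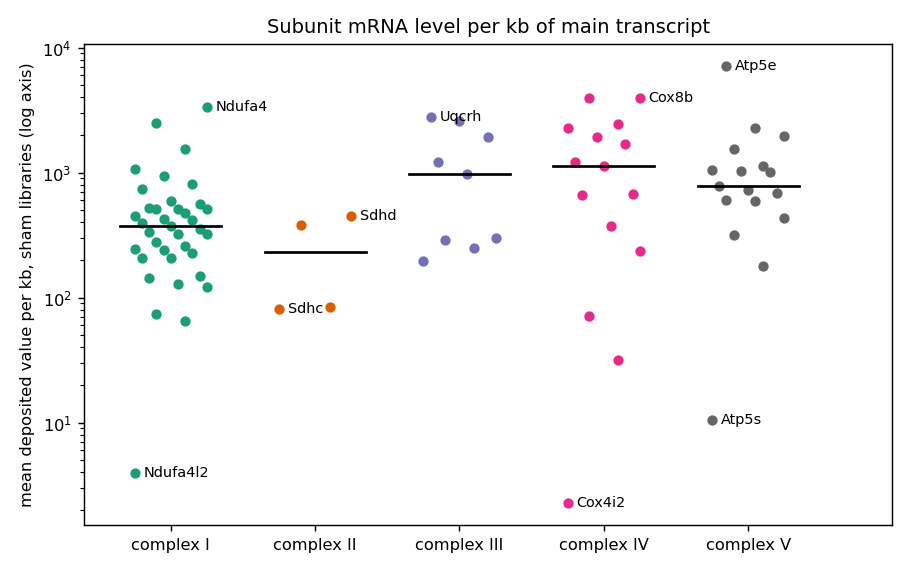
Each point is 1 subunit gene at its mean deposited value per kb of main transcript over the 69 sham libraries, on a log axis. Black lines are the medians of the complexes, from 231.6 for complex II to 1134 for complex IV, and the lowest 3 points are Cox4i2, Ndufa4l2 and Atp5s.

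Other central subunits of the 5 complexes spanned a wide range per kb in sham muscle. Cox4i1, the common subunit 4 of complex IV, had 2468 ± 1089 per kb and Cox5a, a further nuclear subunit of that complex, 377.0 ± 109.3 per kb. Atp5b and Atp5a1, the beta and alpha subunits of the ATP synthase head, had 784.4 ± 151.8 and 429.5 ± 106.2 per kb, and Atp5c1, its gamma subunit, 1045 ± 408.6 per kb. Sdhb, the iron-sulfur subunit of complex II, had 378.8 ± 113.2 per kb, whereas Sdha (chr13:74322254-74350280), its flavoprotein, had 84.28 ± 37.64 per kb. Uqcrc1 (which has no redox centre), Uqcrfs1 (the Rieske protein) and Cyc1 (cytochrome c1) of complex III had 287.8 ± 62.89, 299.4 ± 79.05 and 250.4 ± 79.08 per kb, which lay within 1 SD of each other. Ndufv1, a core subunit of complex I, had 149.5 ± 36.32 per kb (SD, n = 69 libraries each).

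The members varied together from library to library. Within groups, the first principal component held 89.2% of their variance on the log2 scale. The median SD of a member within a group was 0.61, against 0.41 over all genes. How far a library favoured long over short transcripts, relative to the average library, was measured as its length slope. For each gene, the mean log2 value over all libraries was first taken off. The slope is that of the remaining log2 value on log2 exon length, over 10715 coding genes that are not members. The slope ran from -0.29 to 0.41. With the slope as a covariate the median within-group SD was 0.31 for the members and 0.29 over all genes, and the first component still held 82.1%.

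The coefficients on that slope differed between subunits. They were negative for 76 of the 82 members, which were thus lower where long transcripts were favoured, with a median of -3.35 log2 units per unit of slope. The line through other coding genes gave a median of -1.54 at the members' lengths, and the 78 cytosolic ribosomal protein genes had a median of -3.79. Cox8b had the most negative coefficient at -4.27 ± 0.25 (SE), followed by Ndufb8 at -4.20 ± 0.23 and Uqcrh at -4.12 ± 0.27. The 6 positive coefficients belonged to Sdha (3.13 ± 0.13), Ndufs1 (1.62 ± 0.16), Atp5a1 (1.22 ± 0.16), Ndufa10 (0.44 ± 0.15), Atp5b (0.33 ± 0.17) and Ndufa4l2 (0.14 ± 0.31). Ndufs1 is the largest iron-sulfur subunit of complex I, and Ndufa10 one of its accessory subunits. Apart from Ndufa4l2, these genes had main transcripts of 1916 to 2900 bp, below the median of 2940 bp over other coding genes. At the exon lengths of Sdha, Ndufs1 and Atp5a1 the line through other coding genes gave -0.15, 0.82 and -0.55. Sdhc, with the longest main transcript of the members at 3171 bp, nevertheless had a negative coefficient of -1.70 ± 0.12. Exercise effects on single subunits are therefore given without and with the slope as a covariate, called the length term.

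**Figure D2:**
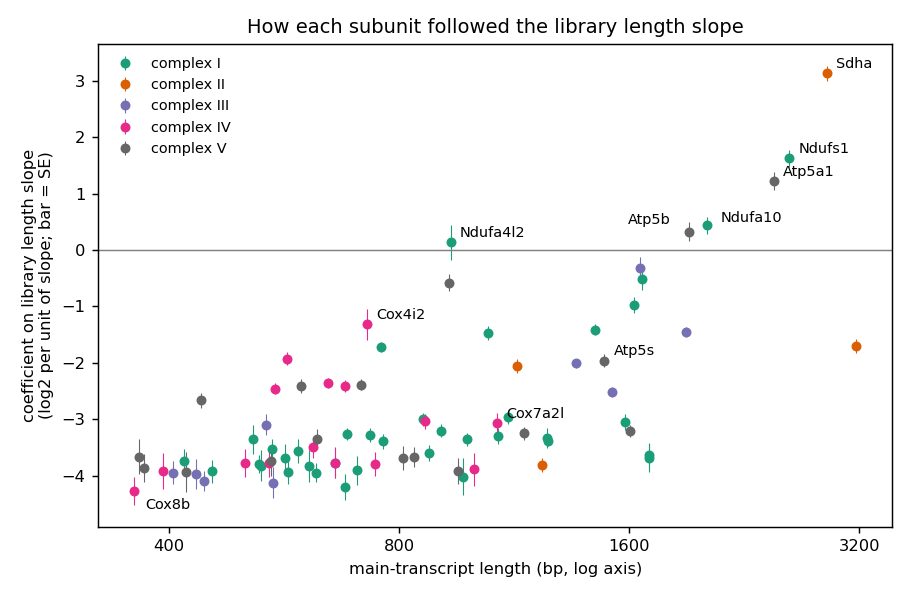
Each point is 1 subunit gene, with main-transcript length on a log axis and its coefficient on the library length slope, with the SE as a bar. Sdha (3.13), Ndufs1 (1.62) and Atp5a1 (1.22), with main transcripts of 2471 to 2900 bp, lie above 0, and Cox8b (-4.27) lies lowest.

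Exercise was first compared with sham directly after the treadmill hour in the rest phase. Most subunits were lower in exercised muscle, with a median log2 change of -0.50 against 0.01 over all genes, but with the length term the median turned to 0.10. No member passed limma at an adjusted p of 0.05 in either fit, against 0.349% of all genes without the term and 0.506% with it. At an unadjusted p under 0.05 there were 5 members without and 1 with the term, against 15% and 7.35% of all genes, and edgeR and DESeq2 each called 0 and had 5 such members. All exercised libraries lay below all sham libraries for 43 members and above them for 2, against 11.1% and 12.7% of all genes. By complex the medians were -0.49 for complex I, -0.22 for complex II, -0.53 for complex III, -0.59 for complex IV and -0.43 for complex V without the term. With the term they were 0.13 for complex I, 0.13 for complex II, 0.11 for complex III, 0.03 for complex IV and 0.11 for complex V.

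Sdha was higher in exercised muscle. It had values of 202.3, 294.0, 309.5 and 330.8 in exercised muscle, against 125.7, 138.4, 142.1, 143.9 and 150.7 in sham muscle. The groups did not overlap, and the log2 difference was 1.00 ± 0.38 without and 0.45 ± 0.16 with the length term (SE; limma adjusted p = 0.304 and 0.291). Ndufs1 had 143.7, 176.5, 195.0 and 236.6 in exercised muscle, against 125.5, 126.2, 126.5, 130.5 and 137.9 in sham muscle, again without overlap. Its log2 difference was 0.52 ± 0.26 without and 0.23 ± 0.19 with the length term. Atp5a1 had 1107, 1250, 1298 and 1566 in exercised muscle, against 746.2, 825.1, 859.2, 985.9 and 1134 in sham muscle, with 1 exercised library inside the sham range. Its log2 difference was 0.52 ± 0.24 without and 0.31 ± 0.19 with the length term.

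Among the lower subunits, Cox8a, the widely expressed isoform of the smallest complex IV subunit, had 29.11, 30.89, 36.37 and 37.08 in exercised muscle, against 45.96, 47.67, 51.49, 52.20 and 68.23 in sham muscle. The groups did not overlap, and the log2 difference was -0.66 ± 0.29 without and -0.23 ± 0.12 with the length term (limma adjusted p = 0.304 and 0.693). Ndufb3, an accessory subunit of complex I, had 115.6, 124.6, 154.0 and 154.7 in exercised muscle, against 194.7, 199.8, 210.02, 221.8 and 244.4 in sham muscle, also without overlap. Its log2 difference was -0.65 ± 0.40 without and -0.05 ± 0.15 with the length term. Sdhb overlapped between the groups, with 418.1, 423.3, 478.7 and 578.8 in exercised muscle, against 421.2, 429.9, 534.3, 609.8 and 738.0 in sham muscle. Its log2 difference was -0.18 ± 0.27 without the term and turned to 0.18 ± 0.15 with it.

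In these 9 libraries the length slope ran from -0.03 to 0.03 in exercised and from -0.25 to -0.10 in sham muscle. The ranges did not overlap, so slope and treatment cannot be told apart here. The summed level of 5 of 5 red cell genes was 484.6 to 823.5 in exercised and 970.4 to 1367 in sham muscle, and that of 7 slow-fibre genes 512.0 to 865.0 in exercised and 891.5 to 1061 in sham muscle. The sum of the 78 ribosomal protein genes was 24664 to 50712 in exercised and 55541 to 75547 in sham muscle. The muscle, endothelial, macrophage, adipocyte, Schwann cell and fibroblast lists overlapped between the groups, and none of the listed brown adipocyte or neutrophil genes was among the genes tested. The part of these lists in the result was not tested. In a fit of these 9 libraries alone, 47 members passed limma, 3 of them higher (Sdha, Ndufs1 and Atp5a1) and the rest lower, against 31.9% of all genes, and 0 members and 0% of genes passed once the slope was added to that fit. With the slope added, 12 members had an unadjusted p under 0.05, and the share of all genes at that cut was not counted. The members' median was then -0.25. With the slope times log2 exon length taken off each value in the fit of all groups it was -0.15, so the direction of the median after correction depends on how length is corrected for.

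**Figure D3:**
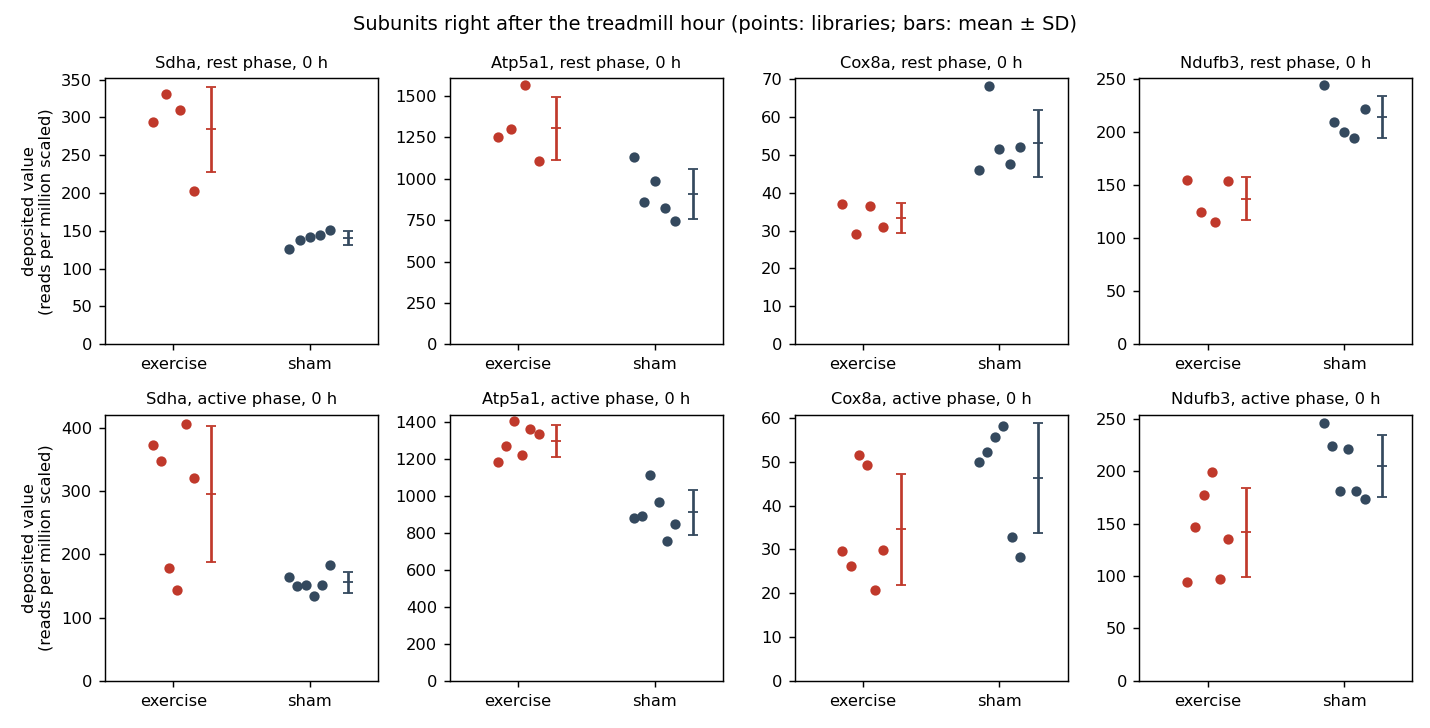
Deposited values of Sdha, Atp5a1, Cox8a and Ndufb3 at 0 h, with exercised libraries left of sham libraries, the rest phase above and the active phase below. Points are libraries and bars are the mean ± SD. In the rest phase the groups do not overlap for Sdha, Cox8a and Ndufb3, and in the active phase they do not overlap for Atp5a1.

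Directly after the treadmill hour in the active phase the median log2 change was -0.53 without and -0.01 with the length term. No member passed limma in either fit, against 1.18% of all genes without and 1.75% with the term. There were 4 members at an unadjusted p under 0.05 without the term and 5 with it, against 21.7% and 13.3% of all genes, and edgeR and DESeq2 each called 0 and had 3. With the slope in a fit of this comparison's libraries alone, the median was -0.24 and 1 member passed, Ndufv1, against 1.13% of all genes. In that fit 32 members had an unadjusted p under 0.05, and the share of all genes at that cut was not counted. The median after correction thus depends on how length is corrected for. Atp5a1 had 1186 to 1404 with a median of 1302 in exercised muscle, against 755.6 to 1115 with a median of 887.2 in sham muscle. The groups did not overlap, nor did those of Ndufs1, with 165.7 to 221.1 with a median of 182.1 in exercised muscle, against 103.6 to 155.3 with a median of 123.9 in sham muscle. For these 2 members every exercised library lay above every sham library, against 1.25% of all genes, and no member had the reverse, against 0.951%. Atp5a1 differed by 0.52 ± 0.21 without and 0.34 ± 0.16 with the length term, and Ndufs1 by 0.56 ± 0.22 without and 0.32 ± 0.16 with the length term.

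Sdha had 144.2 to 406.3 with a median of 334.4 in exercised muscle, against 134.8 to 182.5 with a median of 151.3 in sham muscle at 0 h of the active phase. Exercised values exceeded the highest sham value in 4 of 6 libraries. The log2 difference was 0.83 ± 0.32 without and 0.38 ± 0.13 with the length term (limma adjusted p = 0.17 and 0.153). Cox8a overlapped here, with 20.83 to 51.57 with a median of 29.72 in exercised muscle, against 28.38 to 58.24 with a median of 51.11 in sham muscle. Of other subunits, Uqcrc1 differed by 0.31 ± 0.19 without and 0.35 ± 0.19 with the length term, and Ndufv1 by 0.32 ± 0.21 without and 0.39 ± 0.20 with the length term. Cyc1 differed by -0.37 ± 0.26 without and -0.01 ± 0.09 with the length term, and Atp5c1 by -0.47 ± 0.33 without and -0.01 ± 0.12 with the length term. Sdhb differed by -0.11 ± 0.23 without the term, and turned to 0.19 ± 0.12 with it. At this hour all the marker lists overlapped between the groups.

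**Figure D4:**
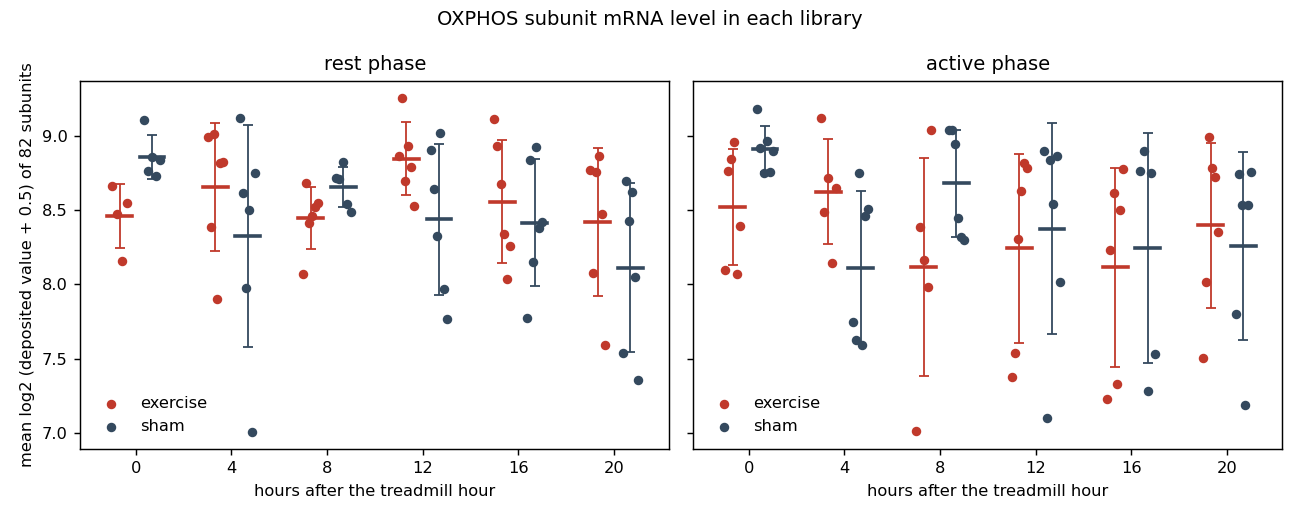
Mean log2 (deposited value + 0.5) of the 82 subunits in each library, with exercised libraries left of sham libraries at each hour. Lines and bars are the mean ± SD of a group. At 0 h the exercised means (8.46 for the rest and 8.52 for the active phase) lie below the sham means (8.86 and 8.91).

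At 4 h most members were higher in exercised muscle, with a median log2 change of 0.38 (rest phase) and 0.63 (active phase), and of 0.07 and 0.25 with the length term. No member passed limma in either phase, against 0.0175% (rest phase) and 0.0175% (active phase) of all genes without the term, and 0.096% and 0.0698% with it. Unadjusted p-values under 0.05 were found for 0 members in either phase without the term, 0 and 4 with it, 0 and 0 by edgeR, and 0 and 1 by DESeq2. Over all genes the shares with such p-values were 2.93% (rest phase) and 6.86% (active phase) without the term, and 4.88% and 6.11% with it. Atp5g3, a gene of the membrane ring of ATP synthase, had the smallest p in the rest phase, with 305.2 to 578.1 with a median of 510.4 in exercised muscle, against 173.0 to 541.5 with a median of 405.4 in sham muscle. The groups overlapped, and the log2 difference was 0.43 ± 0.25 without and 0.20 ± 0.11 with the length term. Cox6a1 and Uqcrq followed, with differences of 0.34 ± 0.22 without and 0.16 ± 0.12 with the length term, and of 0.62 ± 0.43 without and 0.26 ± 0.21 with the length term. In the active phase Uqcrb, a small subunit of complex III, had 464.8, 503.9, 594.7, 721.6 and 747.6 in exercised muscle, against 207.9 to 617.0 with a median of 388.2 in sham muscle. Exercise minus sham was, on the log2 scale, 0.72 ± 0.37 without and 0.37 ± 0.20 with the length term. Atp5j and Atp5j2, both of the stalk and membrane part of ATP synthase, differed by 0.81 ± 0.43 without and 0.39 ± 0.23 with the length term, and by 0.86 ± 0.46 without and 0.42 ± 0.24 with the length term. With the term Atp5f1, of the peripheral stalk, had the smallest p, and it differed by 0.61 ± 0.34 without and 0.25 ± 0.11 with the length term. Sdha was below 0 at this hour without the term, at -0.23 ± 0.32 (rest phase) and -0.33 ± 0.34 (active phase), and turned to 0.06 ± 0.13 and 0.02 ± 0.14 with it.

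Marker lists were read beside the members at 4 h of the active phase. The summed level of the 5 endothelial genes was 53.85 to 129.01 in exercised and 57.41 to 182.7 in sham muscle, with 0 of 5 log2 changes above 0 and a median of -0.59. The 5 fibroblast genes summed to 706.1 to 1788 in exercised and 972.5 to 2491 in sham muscle, with a median of -0.61, and the 6 macrophage genes to 37.10 to 85.64 in exercised and 39.90 to 150.5 in sham muscle, with 0 of 6 above 0 and a median of -0.32. The 78 ribosomal protein genes summed to 31295 to 79320 in exercised and 19003 to 56301 in sham muscle, with 78 of 78 above 0 and a median of 0.65. Median sums of the red cell genes were 756.3 in exercised and 578.2 in sham muscle, and those of the adipocyte genes 234.8 and 173.4. In the same order they were 25.45 and 39.40 for the Schwann cell, 689.5 and 625.3 for the slow-fibre and 101509 and 96441.5 for the muscle genes. At 4 h of the rest phase the ribosomal protein genes had a median of 0.39 and the 5 adipocyte genes of 0.50. All these sums overlapped between the groups, and the part of the lists in the subunits' values was not tested.

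At 8 h of the rest phase the median log2 change was -0.27 without and -0.24 with the length term. No member passed limma, against 0.00873% of all genes in each fit, and at an unadjusted p under 0.05 there were 0 members without and 2 with the term, against 2.13% and 5.43% of all genes, and 0 by edgeR and by DESeq2. With the slope in a fit of this comparison's libraries alone, the median was -0.25 and 0 members passed, against 0.0262% of all genes. In that fit 13 members had an unadjusted p under 0.05, and the share of all genes at that cut was not counted. Ndufa12, an accessory subunit of complex I, had 180.1 to 236.8 with a median of 221.4 in exercised muscle, against 202.4, 233.2, 301.0, 306.0 and 316.9 in sham muscle. Its log2 difference was -0.33 ± 0.32 without and -0.31 ± 0.12 with the length term. Atp5b differed by 0.20 ± 0.19 without and 0.20 ± 0.18 with the length term, and Ndufv2, a core subunit of complex I, by -0.43 ± 0.42 without and -0.40 ± 0.22 with the length term. At 8 h of the active phase the median was -0.72 without the term and 0.01 with it. No member passed limma, against 0% of all genes without and 0.00873% with the term. There were 21 members at an unadjusted p under 0.05 without the term and 0 with it, against 24.5% and 3.53% of all genes, and edgeR and DESeq2 each called 0 and had 5 and 8.

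The 5 exercised libraries at 8 h of the active phase were spread widely. Atp5g2, another gene of the membrane ring, had 53.55, 71.92, 85.34, 98.13 and 156.9 in exercised muscle, against 119.9 to 180.7 with a median of 142.1 in sham muscle. Exercise minus sham, on the log2 scale, was -0.76 ± 0.30 without and -0.21 ± 0.14 with the length term. Ndufa12 had 91.35, 143.4, 156.3, 201.9 and 314.9 in exercised muscle, against 215.5 to 402.3 with a median of 260.4 in sham muscle. Sdha had 151.8, 336.6, 368.5, 405.3 and 462.5 in exercised muscle, against 124.6 to 276.0 with a median of 176.3 in sham muscle, and its log2 difference was 0.84 ± 0.34 without and 0.19 ± 0.14 with the length term (limma adjusted p = 0.202 and 1). In each of these 3 genes replicate 6 was the 1 exercised library inside the sham range. Without that library 12 members passed limma, 1 of them higher and the rest lower, against 18.4% of all genes, and without replicate 1 of that group the median change was -0.34. The length slope of these exercised libraries ran from -0.19 in replicate 6 to 0.37 in replicate 1, against -0.20 to 0.02 in sham muscle, and the median of 0.01 is the one with that slope in the fit.

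The same lists were read in these 11 libraries. The summed level of the 5 endothelial genes was 61.89 to 190.5 in exercised and 60.07 to 96.09 in sham muscle, with a median log2 change of 0.91 and 4 genes at an unadjusted p under 0.05. The 5 adipocyte genes summed to 116.3 to 443.9 in exercised and 271.9 to 706.0 in sham muscle, with a median of -0.73 and 2 such genes. The 78 ribosomal protein genes summed to 9124 to 58570 in exercised and 33843 to 84106 in sham muscle, with a median of -0.92 and 43 such genes. With the length term the 3 medians were 0.40, -0.31 and -0.15. The sums overlapped between the groups in each list, no gene of them passed limma, and their part in the subunits' values was not tested.

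**Figure D5:**
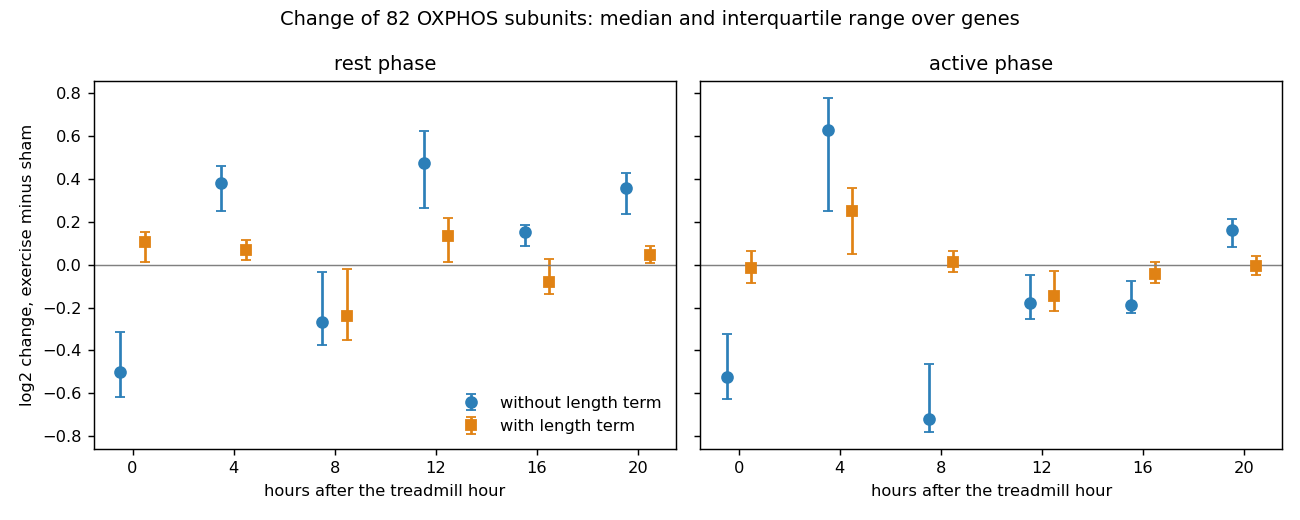
Median log2 change, exercise minus sham, of the 82 subunits at each hour, without (circles) and with (squares) the length term. Bars are the interquartile range over genes. Without the term the medians run from -0.72 to 0.63, and with it from -0.24 to 0.25.

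At the later hours no member passed limma in either phase. In the rest phase the medians were 0.47 at 12 h, 0.15 at 16 h and 0.36 at 20 h without the length term, and 0.13, -0.08 and 0.05 with it, so that the sign at 16 h turned. In the active phase they were -0.18, -0.19 and 0.16 without the term, and -0.14, -0.05 and -0.01 with it, so that the sign at 20 h turned. The share of all genes that passed was 0.0524% at 12 h of the rest phase, 0.00873% at 12 h of the active phase and 0% at 16 and 20 h of both phases without the term. With the term it was 0.131% at 12 h and 0.0349% at 20 h of the rest phase, 0.0175% at 12 h of the active phase and 0% at the other 3. At an unadjusted p under 0.05 there were 0 members in these 6 comparisons without the term, 1 with it (Cox6a1, at 20 h of the active phase), 1 by edgeR (at 12 h of the rest phase) and 0 by DESeq2. Over all genes the share at 20 h of the active phase with the term was 1.81%, and at 12 h of the rest phase without it 6.04%. In the remaining comparisons the shares ran from 0.838% to 3.33% without the term and from 2.16% to 8.18% with it.

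At 12 h of the rest phase Atp5s had the smallest p, with values of 15.35 to 21.73 with a median of 18.24 in exercised muscle, against 8.93 to 18.67 with a median of 13.73 in sham muscle. The groups overlapped, and the log2 difference was 0.42 ± 0.22 without and 0.21 ± 0.12 with the length term. Ndufs6, an accessory subunit of complex I, differed by 0.75 ± 0.43 without and 0.35 ± 0.26 with the length term. At 16 h of that phase Ndufs3, a core subunit of complex I, came first with 138.1 to 263.5 with a median of 168.7 in exercised muscle, against 104.2 to 234.9 with a median of 140.5 in sham muscle, again with overlap. It differed by 0.27 ± 0.20 without and 0.17 ± 0.13 with the length term, Cox6a2 by 0.33 ± 0.25 without and 0.15 ± 0.11 with the length term and Uqcrfs1 by 0.26 ± 0.21 without and 0.12 ± 0.08 with the length term. At 20 h Atp5g3 differed by 0.35 ± 0.25 without and 0.12 ± 0.11 with the length term. Ndufa8 and Ndufb10, accessory subunits of complex I, differed there by 0.40 ± 0.31 without and 0.11 ± 0.12 with the length term, and by 0.43 ± 0.33 without and 0.12 ± 0.13 with the length term.

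In the active phase Atp5b had the smallest p at 12 and 16 h, with differences of 0.21 ± 0.18 without and 0.21 ± 0.17 with the length term, and of 0.19 ± 0.19 without and 0.18 ± 0.18 with the length term. Ndufa10 differed by 0.17 ± 0.17 without and 0.17 ± 0.16 with the length term at 12 h, and by 0.15 ± 0.17 without and 0.14 ± 0.16 with the length term at 16 h. Ndufv1 differed by 0.20 ± 0.21 without and 0.20 ± 0.20 with the length term at 12 h, and Atp5a1 by 0.20 ± 0.22 without and 0.15 ± 0.17 with the length term at 16 h. At 20 h Atp5g1 differed by 0.25 ± 0.26 without and 0.13 ± 0.13 with the length term, and Ndufa8 by 0.28 ± 0.31 without and 0.13 ± 0.11 with the length term. None of these differences passed limma.

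Cox6a1, the widely expressed isoform of complex IV subunit 6a, had 19.72 to 30.18 with a median of 22.49 in exercised muscle, against 12.20 to 22.14 with a median of 19.29 in sham muscle at 12 h of the rest phase. The log2 difference there was 0.41 ± 0.22 without and 0.21 ± 0.12 with the length term. At 20 h of the active phase Cox6a1 had 12.75 to 25.81 with a median of 18.75 in exercised muscle, against 10.58 to 18.22 with a median of 14.07 in sham muscle. The groups overlapped at both hours, and the second log2 difference was 0.39 ± 0.22 without and 0.29 ± 0.12 with the length term. From 4 h on, no member had exercised and sham libraries that did not overlap. The share of all genes with every exercised library higher was 0.00873%, 0.314%, 0.096%, 0.00873% and 0.0262% at 4 to 20 h after rest-phase runs, and 0.14%, 0.689%, 0.0349%, 0.0175% and 0.0262% after active-phase runs. The share with every exercised library lower was 0.0349%, 0.096%, 0.0873%, 0.0436% and 0.00873% after rest-phase runs, and 0.157%, 0.532%, 0.0873%, 0.0524% and 0.0524% after active-phase runs.

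Tested jointly over the 6 hours, no member differed between exercised and sham muscle in the rest phase, against 0.244% of all genes without and 0.558% with the length term. In the active phase no member passed either, against 0.698% and 0.951%. At an unadjusted p under 0.05 there was 1 member, Sdha, in the active phase without the term, against 13.2% of all genes. There were 0 in the rest phase, against 4.03% of all genes without and 6.46% with the term. In the active phase with the term there were 0, against 7.86%. Each of edgeR and DESeq2 called 0 members and had 1 such member in the active phase. The difference of the exercise effect between phases, active minus rest, passed limma for no member and 0% of all genes at each hour and jointly, in both fits. No member had an unadjusted p under 0.05 at any hour without the term, by edgeR or by DESeq2, and 1, Sdhd, had one with the term at 8 h, against 2.28% of all genes. Its median over members was -0.01, 0.24, -0.41, -0.66, -0.32 and -0.17 in the order of the hours without the term. With the term it was -0.11, 0.18, 0.20, -0.27, 0.03 and -0.03, so that the sign turned at 8 and 16 h.

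The effect was also averaged over all 12 comparisons, a contrast chosen after seeing the data. Sdha differed by 0.16 ± 0.10 without the length term (limma adjusted p = 0.619) and rose by 0.15 ± 0.04 with it (limma adjusted p = 0.00954). With the term Sdha was the 1 member that passed, against 5.22% of all genes. Without it no member passed, against 1.19%. Unadjusted p-values under 0.05 were found for 0 members without the term, 0 by edgeR, 1 by DESeq2 and 4 with the term. The shares of all genes with such p-values were 9.71% without and 19.6% with the term. Atp5g3 and Atp5a1 came next with the term, at 0.08 ± 0.03 and 0.11 ± 0.05 (limma adjusted p = 0.145 and 0.165). Averaged within 1 phase no member passed, against 0.288% (rest phase) and 0.497% (active phase) of all genes without the term, and 1.15% and 0.934% with it. Unadjusted p-values under 0.05 were found for 0 and 2 members without the term and for 2 in each phase with it. Over all genes those shares were 4.75% and 9.79% without the term, and 11.2% and 10.7% with it.

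A 24 h rhythm was fitted in sham muscle, pooled over the sham groups of both phases. No member passed limma's F test, against 3.94% of all genes without and 13.1% with the length term. At an unadjusted p under 0.05 there were 0 members without and 13 with the term, against 14.5% and 30.4% of all genes, and edgeR and DESeq2 each called 0 and had 0. The median fitted peak-to-trough difference was 0.15 on the log2 scale without and 0.21 with the term. This pooled fit averages the sham series of both phases, which peaked at different times. In the rest-phase sham series alone the median was 0.38 without and 0.29 with the term. Without it 63 members peaked in the later part of the light phase. In the active-phase sham series the median was 0.29 without and 0.21 with the term. Without it 53 members peaked in the later part of the dark phase. Ndufa4l2 had the smallest p without the term, with a fitted difference of 0.39 and a peak shortly after lights on. Ndufa10, Uqcrc1 and Ndufv1 were among those that followed, with fitted differences of 0.20, 0.23 and 0.23 and peaks at ZT 20.9, 22.5 and 23.

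The 4 series were also fitted one by one, again chosen after seeing the data. Without the length term no member passed, against 1.65% of all genes in exercised and 0.942% in sham muscle of the rest phase, and 4% in exercised and 2.48% in sham muscle of the active phase. With the term the shares were 5.76% and 3.35%, and 8.9% and 6.78%. With the term 2 members passed in exercised muscle of the active phase. Cox8a had a fitted difference of 0.34 peaking at ZT 3.42, and Atp5g2 of 0.42 peaking at ZT 15.3. In sham muscle of the active phase the fitted differences were 0.14 for Cox8a and 0.24 for Atp5g2. The change of the rhythm with exercise passed for no member, against 0% of all genes in both phases without the term, and 0% (rest phase) and 0.0175% (active phase) with it. For that change, 0 members had an unadjusted p under 0.05 without the term, and 0 by edgeR. Without the term 1.66% (rest phase) and 1.38% (active phase) of all genes had one. With the term 1 member had one in the rest phase, Ndufa12, against 2.66% of all genes, and 0 in the active phase, against 3.29%.

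Isoform pairs were compared as log2 ratios of deposited values within a library, without division by length. In sham muscle the muscle isoforms lay above their partners, by 5.01 ± 0.56 for Cox8b over Cox8a, 4.59 ± 0.31 for Cox6a2 over Cox6a1 and 1.01 ± 0.16 for Cox7a1 over Cox7a2 (SD, n = 69 libraries each). The log2 ratio was -9.66 ± 0.83 for Cox4i2 over Cox4i1 and -8.85 ± 1.20 for Ndufa4l2 over Ndufa4. Atp5g1 over Atp5g3, which encode the same mature protein, had 0.68 ± 0.19. The ratios given here carry no length term, and their members differ in the coefficient on the slope (-4.27 ± 0.25 for Cox8b and -2.46 ± 0.10 for Cox8a, SE). The tests were also rerun with the slope taken off by exon length, as an alternative setting, and its values are not given here. The part of the slope in the ratios was not tested beyond that. Of 72 exact two-sided permutation tests of exercise against sham, 0 passed after Benjamini-Hochberg adjustment and 4 had an unadjusted p under 0.05. The smallest p that 6 libraries against 6 allow is 0.00216, and 4 against 5, at 0 h of the rest phase, allow 0.0159. After adjustment over 72 tests a single ratio could therefore not pass on its own. The lack of calls does not show that the ratios were unchanged. The ratio of Atp5g1 to Atp5g3 at 4 h of the rest phase was 0.51 ± 0.11 in exercised and 0.69 ± 0.07 in sham muscle (SD, n = 6 each), a difference of -0.18 ± 0.05 (SE; exact permutation p = 0.00866, adjusted p = 0.312). The ratio of Cox8b to Cox8a at 4 h of the active phase was 5.39 ± 0.26 in 5 exercised and 4.76 ± 0.45 in 6 sham libraries, a difference of 0.63 ± 0.22 (SE; exact permutation p = 0.00866, adjusted p = 0.312).

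Related gene lists were read beside the members at 0 h. Among 9 of 13 subunits encoded by mitochondrial DNA the median log2 changes were 0.29 (rest phase) and -0.02 (active phase) without the term, and 0.23 and 0.00 with it. The 16 complex I assembly factors had medians of -0.38 (rest phase) and -0.39 (active phase) without the term, and 0.04 and -0.09 with it, so that the sign in the rest phase turned. The 29 other assembly factors had -0.53 (rest phase) and -0.46 (active phase) without the term, and 0.02 and -0.05 with it, with the same turn. The 18 listed genes of the citric acid cycle and pyruvate dehydrogenase, without complex II, had medians of 0.30 (rest phase) and 0.33 (active phase) without the term, and 0.21 and 0.22 with it. No gene of these 4 lists passed limma at any hour in either fit. Among 18 regulators of mitochondrial biogenesis, Ppargc1a, which encodes PGC-1α, passed with the length term at 4 h of both phases and at 8 h of the active phase, where it rose by 1.18 ± 0.17, 1.04 ± 0.18 and 0.91 ± 0.18 (limma adjusted p = 1.79e-06, 0.000248 and 0.0171). No regulator passed without the term, and no other one passed with it.

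Several members share sequence with other genes, and reads could be split between them. For 29 of 82 members a transcript of another gene matched the main transcript at 97% identity or more over 100 bp or more, and for 16 of them that gene was also in the table. Among the members described here Ndufa12 and Atp5g1 had such a pseudogene in the table (Gm15920 and Gm10039). Atp5a1, Atp5j, Cox4i1 and Atp5f1 shared sequence with the coding genes Haus1, Gabpa, Emc8 and Wdr77. Atp5g2, Uqcrb, Ndufs1, Ndufs3, Cox5a, Cox7a2l, Ndufb2 and Ndufb8 shared sequence with genes that were not in the table, and so did Atp5f1. Values of these genes are uncertain to that extent.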

How the data were processed

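Total RNA depleted of ribosomal RNA was sequenced from stranded libraries as paired 100 bp reads, per the labels' protocols. Tools listed, per the submitters' processing notes, include STAR 2.5.3a, featureCounts 1.5.2 and edgeR 3.2.23, with builds mm10 and GRCm38. The annotation release and the strand setting were not stated. The deposited files hold a signal per gene. Its form, reads per 1e6 reads of a scaled library size, was read from the values, since no header or label states the scaling. All values were whole reads within 0.05 read (100% of them), so that these reads could be given to edgeR (4.0.16) and to DESeq2 (1.42.0), each used as an alternative test. The main test was limma 3.58.1 in R 4.3.3 on log2(value + 0.5), which understates changes of low genes, with trend and robust moderation over 24 groups and Benjamini-Hochberg adjustment over 11461 genes at 0.05. A ± after a log2 difference is its SE. The length term is the length slope of each library, from exon lengths in the GENCODE annotation of GRCm38; main transcripts are the shortest of the best-ranked APPRIS principal ones. Isoform ratios used exact permutation tests. The fits were tested on simulated data. Members and lists were chosen with earlier results of these data known. The rule for named genes took those that passed, the 3 smallest p-values per comparison, isoform pairs, the 5 highest and lowest levels, 13 central subunits, the 5 smallest p for the sham rhythm, Atp5s and Cox7a2l; the 3 smallest p-values are given for exercise against sham at each hour without the length term, and only in part for the other comparisons; any other was chosen after its values were seen, and 1 gene that this rule names is not reported here. The labels number replicates without tying each to a mouse, so p-values measure the spread between samples, which may be technical.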

Additional observations from a re-analysis of the deposited data

Results flagged for a closer look

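In the active phase at 8 h, Sdha in exercised replicate 6 stood apart from the other 4 exercised libraries. Its log2 value was 7.25, against 8.40 in the nearest library, and this gap was 0.714 of the whole range of the group. It was the 1 case of 96 groups of values looked at, and chance alone gives about 1 in 20.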

How the results depend on the processing

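Settings tried were a length slope or length offset, other size factors, pseudocounts of 0.1 and 2, a minimum mean value of 5, the replicate block, each replicate left out, each comparison's own libraries alone, edgeR and DESeq2, and, chosen after seeing the data, a slope from main transcripts, own libraries with the slope, single libraries left out and 6 libraries of low correlation left out. Of the alternative values of the main results, 842 stayed as reported, 19 moved and 13 gained calls. A median counted as stayed when it shifted by less than the SD of the members' mean level between sham libraries. A median whose sign turned could therefore count as stayed. At 0 h of the rest phase, own libraries alone called 47 members (3 higher, 31.9% of all genes). The median change there was 0.10 with the slope, -0.15 with the offset, 0.094 with block and slope, 0.11 with the main-transcript slope, -0.25 with own libraries and slope, and -0.57 to -0.35 with replicates or single libraries left out. At 0 h of the active phase these medians were -0.0145, -0.22, 0.00268, 0.0345 and -0.24, and -0.64 to -0.35 with replicates left out, and own libraries with the slope called 1 member, Ndufv1 (1.13% of all genes). At 8 h of the active phase they were 0.0127, -0.26, 0.0161, 0.0502 and 0.16, and -1.07 to -0.25 with replicates or single libraries left out. Calls there ran from 0 to 34 members, with 34 without replicate 6 in both groups (28% of all genes) and 12 without the exercised replicate 6. The joint test of the active phase had 0 to 1 member called with replicates left out (Sdha, without replicate 6, against 8.16% of all genes), and 1 without the 6 libraries (Uqcrb, against 5.52%). Averaged over 12 comparisons, 1 member, Sdha, passed with the slope, with block and slope, and with the main-transcript slope, against 5.22%, 6.46% and 5.16% of all genes. The rhythm in exercised muscle of the active phase had 2 members with the slope (8.9% of all genes), 1 with the offset (4.77%), 2 with block and slope (9.82%) and 2 with the main-transcript slope (9.3%). The causes were not tested. The replicate block alone called 0 members in each comparison, and the median at 8 h of the active phase was -0.69. Same-numbered exercised and sham libraries correlated above 0.1 in 36 of 66 pairs, and in 0 of 12 comparisons in every pair (-0.75 to 0.89). The correlations also carry the length slopes of the libraries, so they cannot show whether same-numbered libraries were paired. The median SE of a member, 0.35 to 0.40 without the length term, limits what these comparisons could detect.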
